A study of Mus musculus with 8 samples.

Results

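The *Dlk1*-*Dio3* cluster is an imprinted domain, here taken as 6 of the 48440 genes listed in the count files: the noncoding genes *Meg3*, *Rian* and *Mirg* and the protein-coding genes *Dlk1*, *Rtl1* and *Dio3*. The genes were chosen by their place in the domain and matched to the files by gene identifier. They were followed in RNA sequencing of mouse embryonic stem (ES) cells of 4 genotypes, with 2 libraries each, collected at day 1 of in vitro differentiation. The parental line of every genotype was MK6, derived from C57BL/6J mice. The wild-type controls (WT) were unedited, and the other lines carried edits of *Tbxt*. *Tbxt* encodes the T-box transcription factor Brachyury of the primitive streak. Tbxt delE6/delE6 cells lacked exon 6 of *Tbxt* on both alleles, and Tbxt delE6/+ cells lacked it on one allele. Tbxt Insert ASAY cells (insASAY) carried human AluSx1 and AluY elements, inserted into the introns on either side of that exon. According to the study's methods, the insertion was homozygous and made in cells grown on feeders, whereas the deletion was made in cells grown without them. Both kinds of edit were isolated as single clones, and the pair of delE6/delE6 libraries came from different clones. For the other genotypes the number of clones is not given in the sources used here, so a difference between genotypes and a difference between clones cannot be told apart.

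In mammals an imprinted gene is read mainly or only from the chromosome of one parent. In this domain the paternal chromosome is the source of the coding RNAs *Dlk1*, *Rtl1* and *Dio3*, and the maternal chromosome that of the noncoding RNAs *Meg3* (also called *Gtl2*), *Rian* and *Mirg*, which lie in one direction and host small nucleolar RNAs and microRNAs. A differentially methylated region between *Dlk1* and *Meg3* controls the choice, and loss of the maternal RNAs is a familiar defect of mouse pluripotent stem cells. The counts do not separate the parental alleles, so they give the sum of both chromosomes.

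On GRCm38, in the GENCODE M21 annotation, the 6 genes run from chr12:109452823-110281097, an interval of 828 kb. *Dlk1* (ENSMUSG00000040856.17) lies at chr12:109452823-109463336 and encodes a Delta-like transmembrane protein that restrains differentiation. *Meg3* follows at chr12:109541001-109571726, *Rian* at chr12:109603940-109661716 and *Mirg* at chr12:109729764-109749460, all on the plus strand. *Rtl1*, a retrotransposon-derived gene of the placenta, lies on the minus strand at chr12:109589193-109600330, between *Meg3* and *Rian*. *Dio3*, the deiodinase that inactivates thyroid hormone, closes the interval at chr12:110279068-110281097. The files list 104 annotated genes in this interval. Of these, 27 had at least 1 read, and 5 passed the filter on low counts: *Dlk1*, *Meg3*, *Rian*, *Mirg* and *Dio3*.

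The start regions of *Meg3* and *Rian* are shown because both RNAs differed between genotypes and because the edited gene encodes a DNA-binding factor. They are RefSeq windows on GRCm38.p6 of 250 bases before and 50 bases from the annotated start, on the plus strand. RefSeq gave such windows for 5 of the 6 genes, including 2 for *Meg3*. Capitals mark matches, on either strand, to any of 5 short motifs: TCACACCT (a site bound by T-box factors), TGACGTCA (the cyclic AMP response element), TATAAA (the TATA box), CCAAT (the box of that name) and TGCCGC (the hexamer read by ZFP57, which maintains methylation imprints). The TATA matches on the opposite strands of the first window overlap each other.

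Meg3, first start, chr12:109540746-109541045: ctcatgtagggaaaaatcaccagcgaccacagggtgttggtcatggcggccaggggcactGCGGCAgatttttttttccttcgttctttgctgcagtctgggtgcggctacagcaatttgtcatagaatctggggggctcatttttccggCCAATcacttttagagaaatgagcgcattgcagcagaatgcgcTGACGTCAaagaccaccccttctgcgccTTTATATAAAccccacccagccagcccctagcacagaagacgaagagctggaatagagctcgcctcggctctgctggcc

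Meg3, second start, chr12:109545148-109545447: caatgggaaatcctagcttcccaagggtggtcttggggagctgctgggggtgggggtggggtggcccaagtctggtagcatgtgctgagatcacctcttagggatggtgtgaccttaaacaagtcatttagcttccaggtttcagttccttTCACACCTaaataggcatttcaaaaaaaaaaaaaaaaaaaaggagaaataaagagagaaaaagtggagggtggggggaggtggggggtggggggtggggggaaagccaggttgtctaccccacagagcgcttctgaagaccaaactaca

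Rian, chr12:109603695-109603994: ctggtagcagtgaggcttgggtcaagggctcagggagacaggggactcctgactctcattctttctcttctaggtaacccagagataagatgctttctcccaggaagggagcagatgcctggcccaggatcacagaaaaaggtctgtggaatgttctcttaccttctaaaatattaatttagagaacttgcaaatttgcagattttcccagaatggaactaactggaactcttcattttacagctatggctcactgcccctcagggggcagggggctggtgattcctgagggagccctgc

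The first *Meg3* window held a cyclic AMP response element 57 bases before the start and a TATA box 25 bases before it, a CCAAT box and 1 ZFP57 hexamer. Of the 32544 different promoter windows of the same length in the table, 1.80% held the response element, 13.6% the TATA box, 37.4% the CCAAT box and 11.7% the hexamer. The T-box site occurred in 1.28% of all windows. Among those of the cluster it was found in the second *Meg3* window, 99 bases before a start that lies 4397 bases inside the GENCODE gene. The *Rian* window held none of the 5 motifs and no CpG, whereas the first *Meg3* window held 13 CpG and the median window 7. The RefSeq start of *Mirg* lies 5217 bases inside the GENCODE gene, as the second *Meg3* start lies inside its gene. The *Mirg* window, not shown, held a CCAAT box and 10 CpG but no T-box site. The matches describe letters, and binding was not measured.

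The noncoding RNAs of the cluster are precursors of microRNAs. RefSeq places 114 entries of mature microRNAs between the start of *Dlk1* and the end of *Dio3*, 26 of them inside *Mirg* and 6 inside *Rian* on the strand of the host. They have 104 different seeds (bases 2 to 8, in capitals below), and 10 seeds were shared by a pair of entries. Among these pairs is miR-3070-5p, entered with the same sequence at *Mir3070a* and *Mir3070b*. The 6 below, shown to give the products that the *Mirg* and *Rian* precursors carry, are the shared seeds that include a microRNA inside either gene.

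miR-453, inside *Mirg*: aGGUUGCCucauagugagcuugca

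miR-496a-5p, inside *Mirg*: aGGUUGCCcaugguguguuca

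miR-410-5p, inside *Mirg*: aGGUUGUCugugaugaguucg

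miR-494-5p, between *Rian* and *Mirg*: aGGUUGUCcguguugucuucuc

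miR-370-5p, inside *Rian*: cAGGUCACgucucugcaguu

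miR-1193-3p, between *Rian* and *Mirg*: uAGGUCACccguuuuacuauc

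miR-453 and miR-496a-5p share a seed, as do miR-410-5p and miR-494-5p, and miR-370-5p and miR-1193-3p. Libraries of polyadenylated RNA do not measure mature microRNAs. Of the 67 microRNA genes listed in the interval, 19 had a read, with at most 6 reads on 1 gene in 1 library, and of the 23 small nucleolar RNA genes 1 had a single read. The values below are therefore those of the long host RNAs.

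The libraries held 24618587 to 28445952 reads on genes. Levels are given in CPM, the reads on a gene per 1000000 reads of the library, scaled between libraries by the trimmed mean of M values (TMM), and as mean ± SD of 2 libraries. A gene was called different at an adjusted p under 0.05 (edgeR's quasi-likelihood test, Benjamini-Hochberg over all 17049 tested genes) with a log2 fold change past 0.5 in size. *Tbxt* itself had 47 and 42 reads in WT, 26 and 22 in delE6/delE6, 39 and 54 in delE6/+ and 30 and 29 in insASAY libraries. *Tbxt*, at 0.807 to 2.21 CPM, was called lower in delE6/delE6 against WT (log2 fold change -0.81 ± 0.277, adjusted p = 0.0360). It was not called in delE6/+ (0.17 ± 0.245) or insASAY (-0.60 ± 0.266) against WT. Compared directly, delE6/+ was called above delE6/delE6 (0.98, adjusted p = 0.0101) and insASAY below delE6/+ (-0.76, adjusted p = 0.0265). The difference of insASAY from delE6/delE6 was not called. Counts per gene do not show whether exon 6 is present, so they check the edit only in part. All 10 markers of pluripotent ES cells were detected above the filter in these cells, with *Pou5f1* at 156 to 295 CPM.

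The long noncoding RNAs ranked first in every genotype on the scale of CPM per kb of exon, the one scale used for levels between genes. In WT cells *Rian* stood at 8.03 ± 0.0348 CPM per kb, *Meg3* at 1.06 ± 0.00565, *Mirg* at 0.900 ± 0.0195, *Dlk1* at 0.697 ± 0.0472 and *Dio3* at 0.539 ± 0.269. The first 4 did not overlap in the WT libraries, whereas *Dlk1* and *Dio3* did. In delE6/delE6 cells *Rian* reached 20.3 ± 1.76 CPM per kb, and *Mirg* (2.79 ± 0.354) and *Meg3* (2.50 ± 0.104) overlapped in their libraries. Exon lengths are those of GENCODE M21, in which the versions of *Rian* and *Rtl1* differ from those of the files.

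**Figure D1:**
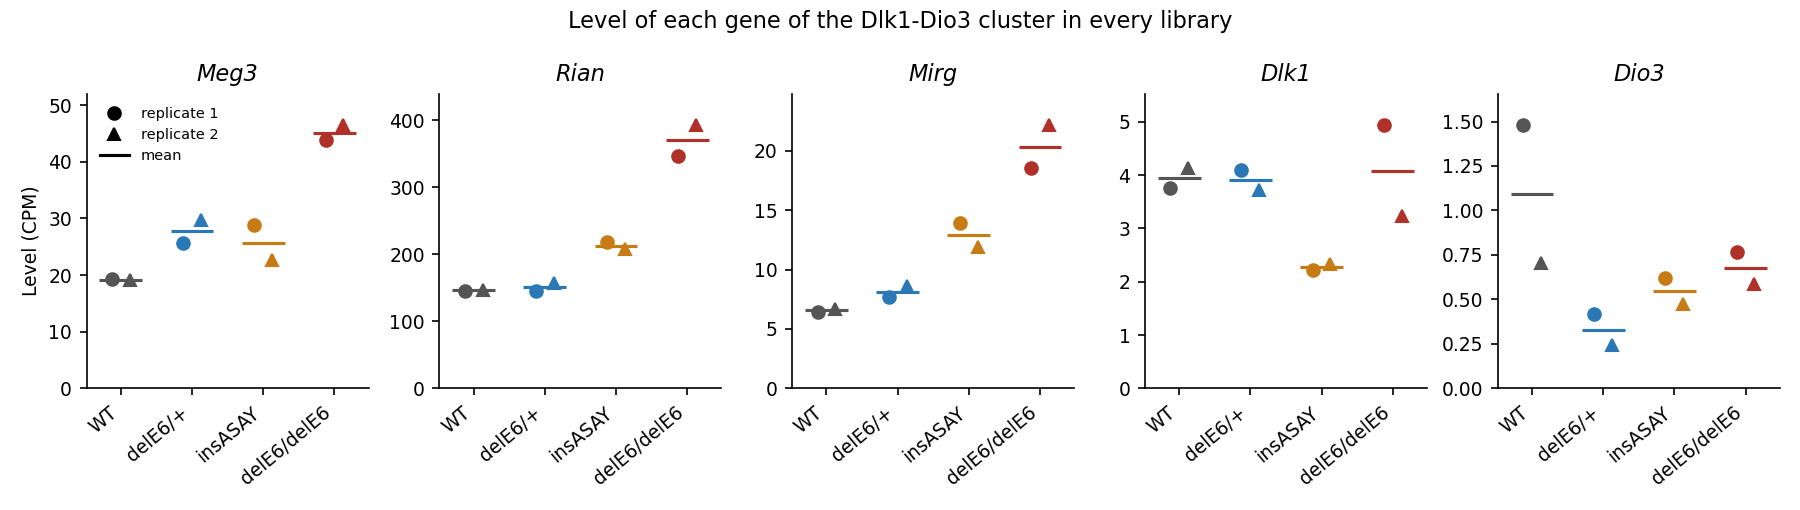
Level in CPM (y axis, starting at 0, a separate scale for each gene) of the 5 tested genes in each of the 8 libraries, by genotype. Points are libraries and lines are means of 2 libraries. All 3 noncoding RNAs are highest in both delE6/delE6 libraries, *Dlk1* is lowest in both insASAY libraries, and *Dio3* is below 1.5 CPM throughout.

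*Rian* was the most abundant RNA of the cluster. It had 146 and 147 CPM in WT libraries, 347 and 393 in delE6/delE6, 146 and 158 in delE6/+ and 218 and 208 in insASAY libraries. Both delE6/delE6 libraries thus lay above all others and both insASAY libraries between them and WT, while delE6/+ overlapped WT. In reads, the range was 3844 to 10711 per library.

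*Meg3*, a nuclear RNA with growth-restraining functions, had 19.3 and 19.1 CPM in WT libraries, 43.8 and 46.5 in delE6/delE6, 25.7 and 29.7 in delE6/+ and 28.7 and 22.7 in insASAY libraries. All 6 edited libraries were above both WT libraries, and delE6/+ and insASAY overlapped each other.

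*Mirg*, the host of a large group of microRNAs, had 6.46 and 6.66 CPM in WT libraries, 18.5 and 22.2 in delE6/delE6, 7.69 and 8.58 in delE6/+ and 14.0 and 11.9 in insASAY libraries. No genotype overlapped another, in the order WT, delE6/+, insASAY and delE6/delE6.

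*Dlk1* had 3.75 and 4.13 CPM in WT libraries, 4.94 and 3.23 in delE6/delE6, 4.09 and 3.72 in delE6/+ and 2.22 and 2.34 in insASAY libraries. The insASAY libraries were below all others, and the delE6/delE6 clones lay on either side of WT. With 61 to 122 reads per library, *Dlk1* was measured far less precisely than *Rian*.

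*Dio3* was at the limit of the data, with 41 and 19 reads (1.48 and 0.707 CPM) in WT, 19 and 16 (0.769 and 0.587 CPM) in delE6/delE6, 11 and 6 (0.417 and 0.245 CPM) in delE6/+ and 17 and 13 (0.620 and 0.476 CPM) in insASAY libraries. WT replicate 1 had more than any other library, and no other genotype differed as much between its libraries.

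*Rtl1* had 0 reads in all 8 libraries, on either strand. A count of 0 allows up to 3 reads, which is 0.108 to 0.123 CPM per library (counting error only), so *Rtl1* was not detectable at this depth and no comparison was made. In mice microRNAs lie antisense to *Rtl1*, and 6 microRNA genes overlap it on the opposite strand in this annotation.

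In delE6/delE6 cells against WT, all 3 maternal noncoding RNAs rose and neither tested coding gene passed the test. *Mirg* rose 3.10-fold (log2 fold change 1.63 ± 0.124 SE, adjusted p = 7.15e-06), *Rian* 2.53-fold (1.34 ± 0.0611, adjusted p = 8.26e-08) and *Meg3* 2.35-fold (1.23 ± 0.104, adjusted p = 1.44e-05). *Rian* had the 2nd smallest p of all 17049 genes tested. *Dlk1* had a log2 fold change of 0.04 ± 0.195 (adjusted p = 0.884) and *Dio3* one of -0.70 ± 0.382 (adjusted p = 0.173). The *Dio3* value turned on the WT libraries, at -0.07 (adjusted p = 0.934) without WT replicate 1 and -1.13 (adjusted p = 0.0512) without WT replicate 2. So 3 of the 5 tested genes were called, all higher, where 12.7% of all tested genes were called, 6.12% higher and 6.59% lower. The median log2 fold change was 1.23 over the 5 genes and -0.01 over all tested genes. Without either delE6/delE6 library the 3 RNAs were still called, in fits where the lone remaining clone is assumed to vary like the other genotypes, with *Rian* at 1.25 to 1.43 over all libraries left out in turn. The clones differed most in *Dlk1*, whose level in replicate 2 was 0.659 of that in replicate 1. Only 3.26% of the 12837 genes above 2 CPM differed more between the clones. *Dlk1*, with 122 and 88 reads in them, lies near the lower bound of that set, where counting error is larger.

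In delE6/+ cells against WT, the cluster moved less and unevenly. *Meg3* rose 1.44-fold (log2 fold change 0.53 ± 0.107, adjusted p = 0.00219) and *Dio3* fell, with a log2 fold change of -1.70 ± 0.443 (adjusted p = 0.0102). *Rian* had a log2 fold change of 0.05 ± 0.0616 (adjusted p = 0.584), *Mirg* one of 0.31 ± 0.137 (adjusted p = 0.105) and *Dlk1* one of -0.01 ± 0.197 (adjusted p = 0.972). The 2 calls, 1 in each direction, stand beside 13.5% of all tested genes called, 6.6% higher and 6.89% lower. Neither call was firm. Without delE6/+ replicate 2 neither was made (*Meg3* 0.42, adjusted p = 0.0369 but under the fold threshold, and *Dio3* -1.39, adjusted p = 0.0955), and without WT replicate 1 the *Dio3* call was lost (-1.07, adjusted p = 0.162).

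In insASAY cells against WT, *Mirg* rose 1.97-fold (log2 fold change 0.98 ± 0.128, adjusted p = 6.11e-05), *Rian* rose 1.45-fold (0.54 ± 0.0610, adjusted p = 2.16e-05) and *Dlk1* fell to 0.580 of WT (-0.79 ± 0.211, adjusted p = 0.00801). *Meg3* passed the p threshold but not the fold threshold (0.42 ± 0.107, adjusted p = 0.00577), and *Dio3*, at 0.501 of WT, missed the p threshold (adjusted p = 0.0523). Here 21.3% of all tested genes were called, 11.5% higher and 9.85% lower, against 3 of the 5. The *Dlk1* call was lost without WT replicate 2 (-0.72, adjusted p = 0.0558) and without insASAY replicate 1 (-0.75, adjusted p = 0.0560). *Dio3* stood at -0.37 (adjusted p = 0.570) without WT replicate 1 and was called without WT replicate 2 (-1.43, adjusted p = 0.0136), and *Meg3* without insASAY replicate 2 (0.58, adjusted p = 0.00164). These comparisons share the same WT libraries and are not independent of each other.

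**Figure D2:**
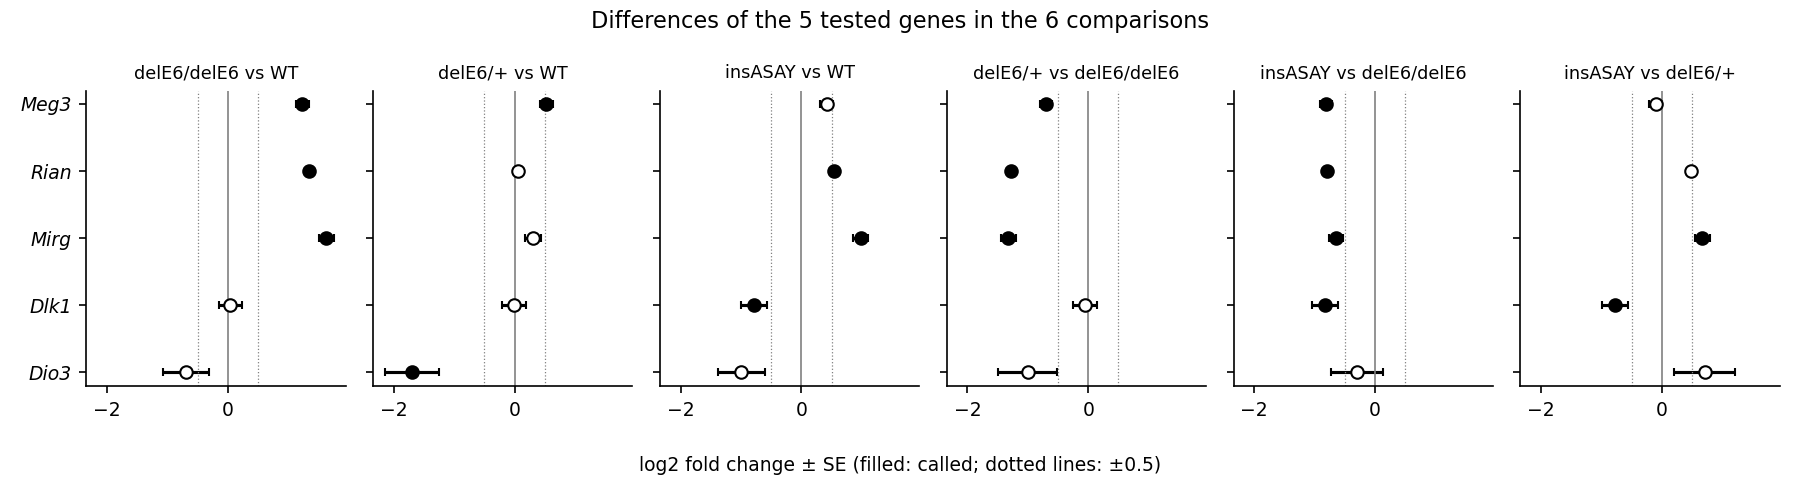
Log2 fold change (x axis) of the 5 tested genes in the 6 comparisons, as points with bars of 1 SE. Filled points are called and dotted lines mark a log2 fold change of 0.5 in size. The 3 noncoding RNAs are filled in delE6/delE6 against WT and in both comparisons of another edited line with delE6/delE6, and the bars of *Dio3* are the widest.

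The edited lines were also compared directly. Against delE6/delE6, delE6/+ cells had lower *Rian* (log2 fold change -1.29 ± 0.0612, adjusted p = 2.51e-08), *Mirg* (-1.32) and *Meg3* (-0.71), 3 of the 5 genes where 22.2% of all tested genes were called. Against delE6/delE6, insASAY cells had lower *Rian* (-0.80 ± 0.0600), *Meg3* (-0.81), *Mirg* (-0.65) and *Dlk1* (-0.83 ± 0.211, adjusted p = 0.0186), 4 of the 5 genes where 5.16% of all tested genes were called. The *Dlk1* call was lost without either insASAY library or without delE6/delE6 replicate 1 (adjusted p of 0.0806, 0.144 and 0.0943). Against delE6/+, insASAY cells had higher *Mirg* (0.67 ± 0.126, adjusted p = 0.000615) and lower *Dlk1* (-0.77 ± 0.213, adjusted p = 0.00799), 2 of the 5 genes where 27.5% were called. The *Dlk1* call was lost without delE6/+ replicate 1 or without insASAY replicate 1. *Rian* was higher in that comparison by 0.49 ± 0.0611 on the log2 scale, just under the fold threshold, and was called without delE6/+ replicate 2 (0.55) or without insASAY replicate 2 (0.52).

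The noncoding RNAs did not keep one ratio to each other. *Meg3* gave 13.2 and 13.0 reads per 100 *Rian* reads in WT, 12.6 and 11.8 in delE6/delE6, 13.2 and 10.9 in insASAY and 17.7 and 18.8 in delE6/+ libraries. The delE6/+ libraries were thus above all others in this ratio. *Mirg* gave 4.42 and 4.53 reads per 100 *Rian* reads in WT libraries and 5.28 to 6.40 in the 6 edited libraries, with no overlap. *Dlk1* gave 2.57 and 2.81 reads per 100 *Rian* reads in WT, 2.81 and 2.36 in delE6/+, 1.42 and 0.822 in delE6/delE6 and 1.02 and 1.13 in insASAY libraries. The delE6/delE6 and insASAY libraries lay below those of WT and delE6/+. These ratios are given as a description and were not tested.

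**Figure D3:**
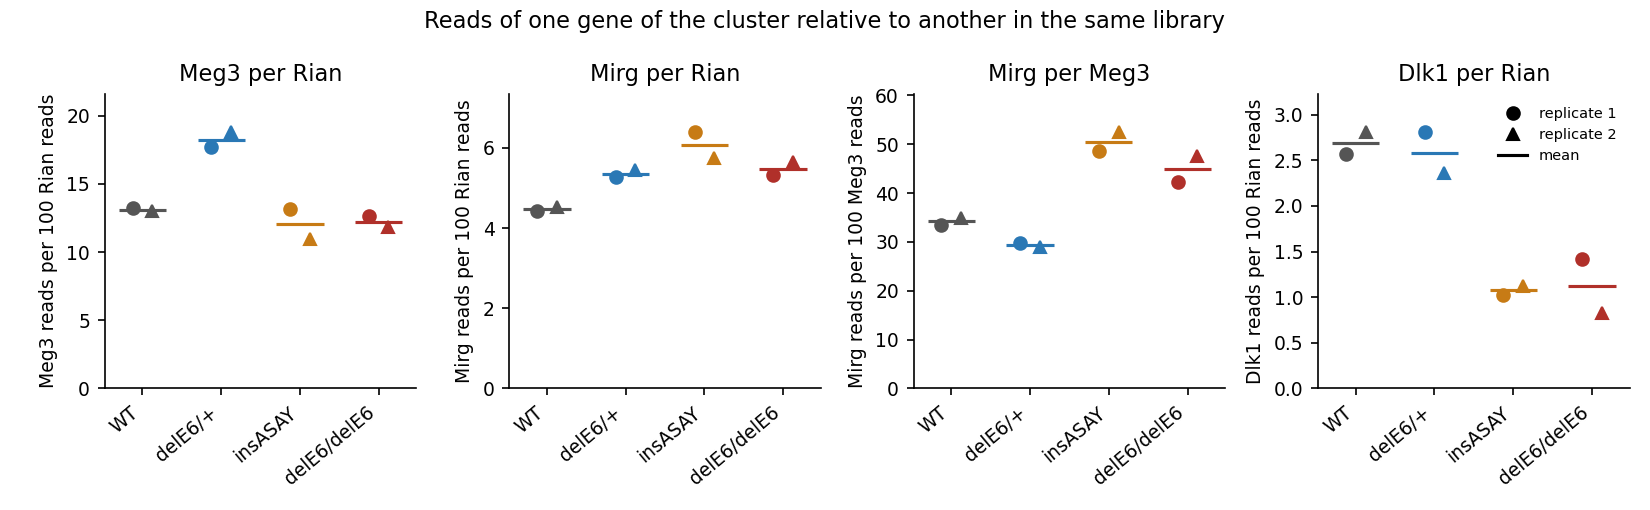
Reads of one gene per 100 reads of another in the same library (y axes, starting at 0), by genotype. Points are libraries and lines are means of 2 libraries. *Meg3* per *Rian* is highest in both delE6/+ libraries (17.7 and 18.8), and *Dlk1* per *Rian* is lower in delE6/delE6 and insASAY than in the other libraries.

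Reads on the strand opposite to *Rian* came to 9 to 64 per library, 0.222% to 0.978% of the reads on both strands, where 4.11% to 4.78% of all reads on genes were on the opposite strand. *Gm26906*, a minus-strand gene that overlaps the end of *Meg3*, had at most 4 reads on its own strand in a library. Genes averaging at least 2 CPM, with *Dio3* added although its mean is lower, were ranked by the Pearson correlation of their log2 CPM with that of *Rian* over the 8 libraries, 12837 genes beside *Rian* in all. *Mirg* (0.97) ranked 6 and *Meg3* (0.88) ranked 264, while *Dio3* (0.06) and *Dlk1* (-0.07) ranked 6227 and 6856. By Spearman correlation *Mirg* (0.93) ranked 32 and *Meg3* (0.74) 1605. The 5 genes ahead of *Mirg* were *Mob1a*, *Pbrm1*, *Peg13*, *Rbbp8* and *Parp8*, at 0.98 each. The points are pairs of libraries of 4 genotypes that share scaling, so the correlations are a description. Of the 5, *Peg13* is itself imprinted, in another domain, and had 1.85 ± 0.0142 CPM in WT and 5.82 ± 0.791 in delE6/delE6 libraries.

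The genes around the cluster were followed in the same comparisons. Of the 23 tested genes within 1 Mb on either side, 2 were called in delE6/delE6 against WT (*Dync1h1*, -0.50, and *Amn*, -0.74, both lower), 3 in delE6/+ against WT (*Eml1* at 0.57, *Hsp90aa1* at -0.55 and *Mok* at -0.81) and 3 in insASAY against WT (*Slc25a47* at 1.75, *Dync1h1* at -0.75 and *Amn* at -0.78). Over all tested genes 12.7%, 13.5% and 21.3% were called in these comparisons, so the counts of neighbours were near or below the background. Their median log2 fold changes were 0.02, -0.01 and -0.03. On the rest of chromosome 12, 35 genes were called higher and 38 lower in delE6/delE6 against WT, of 571 tested, with a median of -0.03. *Begain*, the last tested gene before *Dlk1*, was not called in any mutant line against WT.

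**Figure D4:**
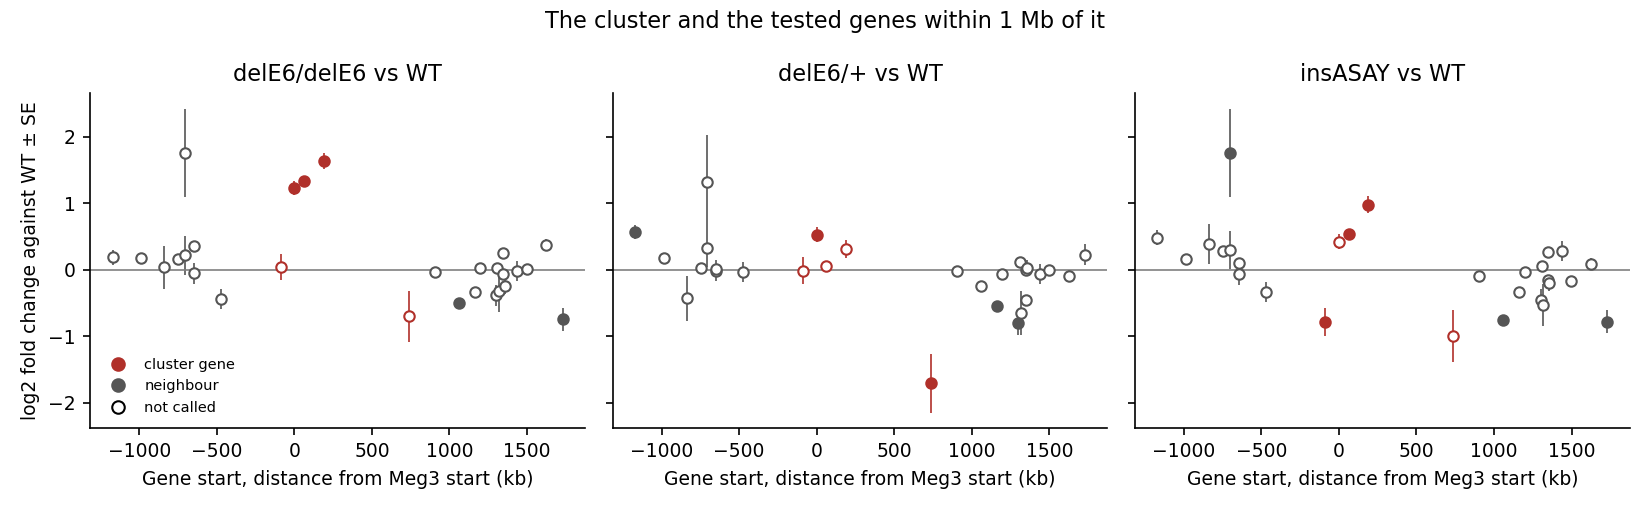
Log2 fold change against WT (y axis, bars of 1 SE) of the cluster genes and of the tested genes within 1 Mb of the cluster, by the distance in kb of each gene's start from the start of *Meg3* (x axis). Filled points are called. In delE6/delE6 against WT, the 3 noncoding RNAs stand between 1.23 and 1.63, and the called neighbours are lower.

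Other imprinted genes were compared as 2 lists, chosen with earlier results of these data known. In delE6/delE6 against WT, 16 of 28 tested paternally expressed genes were called higher and 1 lower, with a median log2 fold change of 0.58. Of 21 maternally expressed genes of other domains 1 was called higher and 8 lower, with a median of -0.18. The called shares were 60.7% and 42.9%, beside 12.7% of all tested genes. The paternally expressed *Mest* (129 ± 3.25 against 304 ± 1.45 CPM), *Peg10* (651 ± 4.14 against 1207 ± 114) and *Impact* (195 ± 8.72 against 385 ± 27.6) rose. The maternally expressed *Cdkn1c*, an inhibitor of cyclin-dependent kinases, fell to 4.53 ± 1.95 CPM from a WT mean of 77 CPM (log2 fold change -4.10 ± 0.142, adjusted p = 7.24e-09), *Phlda2* from 64.1 ± 5.72 to 15.9 ± 2.26 and *Igf2r* from 422 ± 12.3 to 210 ± 27.5 CPM. *Slc22a18*, beside *Cdkn1c* and *Phlda2* in the same domain, fell from 5.28 ± 0.114 to 0.779 ± 0.272 CPM. At least *Cdkn1c*, *Phlda2* and *Slc22a18* share a domain, so the called maternal genes are not independent of each other. Counted as genes and not as independent domains, 8 of the 9 called maternal genes elsewhere moved opposite to the maternal RNAs of the cluster. The exception was *H19*, a noncoding RNA, which rose from 39.1 ± 3.49 to 156 ± 52.9 CPM and was also called higher in delE6/+ (110 ± 5.89 CPM) and insASAY (91.3 ± 17.3 CPM).

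In delE6/+ against WT, 2 of the 21 maternally expressed genes were called higher and 2 lower (median -0.11). Of the 28 paternally expressed genes, 5 were called higher and 0 lower (median 0.17). These were 19.05% and 17.86% of the lists, beside 13.5% of all tested genes, so both counts were near the background. In insASAY against WT, the counts were 4 higher and 2 lower of the maternal list (median 0.04) and 8 higher and 3 lower of the paternal list (median 0.26). The shares were 28.6% and 39.3%, beside 21.3% of all tested genes. *Mest* and *Peg12* were called higher in all 3 lines. *Zdbf2* rose most in insASAY cells (118 ± 1.62 CPM against 35.9 ± 0.570 in WT).

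**Figure D5:**
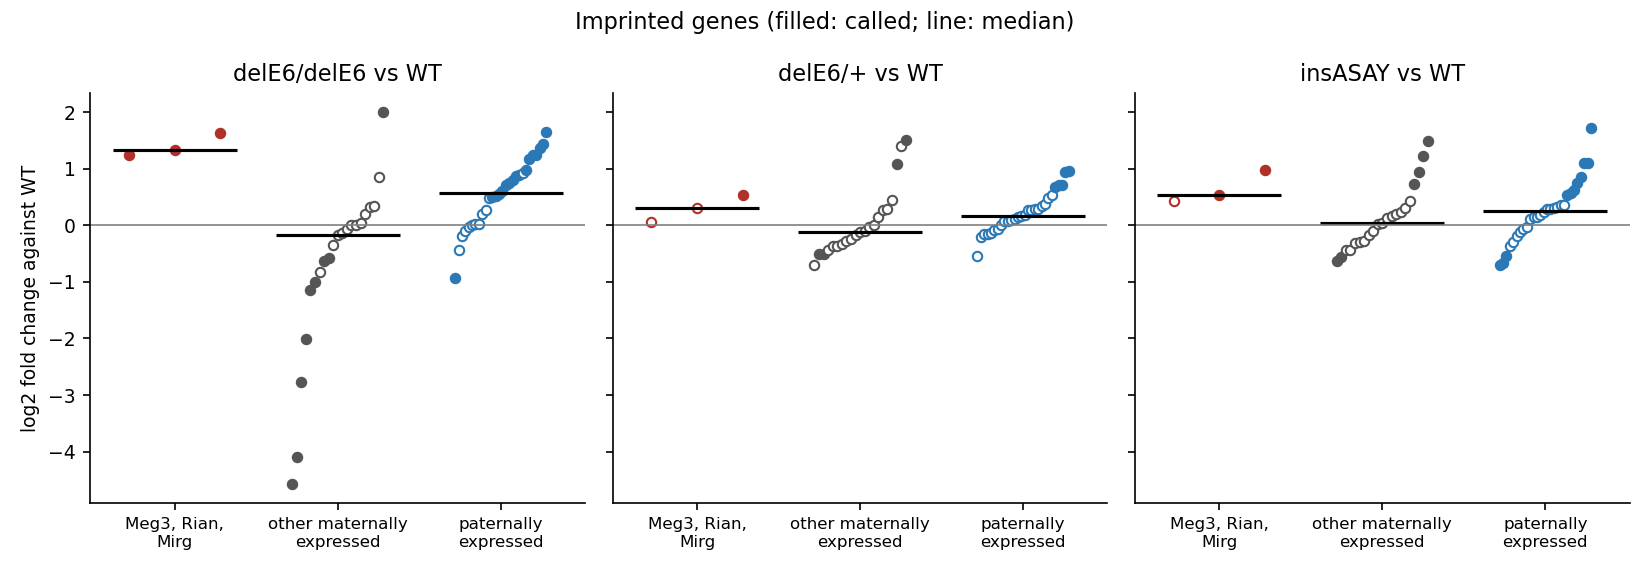
Log2 fold change against WT (y axis) of *Meg3*, *Rian* and *Mirg*, of 21 maternally expressed genes of other domains and of 28 paternally expressed genes, in the 3 edited lines. Points are genes, filled where called, and lines are medians. In delE6/delE6 cells the cluster's RNAs lie above 1, the medians of the other lists are -0.18 and 0.58, and 4 maternal genes lie at or below -2.

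Of 23 genes that keep or erase imprints and other DNA methylation, 1 was called higher and 2 lower in delE6/delE6, 3 higher and 4 lower in delE6/+ and 2 higher and 5 lower in insASAY against WT. These were 13.0%, 30.4% and 30.4% of the list, beside 12.7%, 13.5% and 21.3% of all tested genes, so the count in delE6/delE6 was near the background. *Dppa3*, which protects methylation in the early embryo and has been tied to the imprint of this cluster, was lower in all 3, at 38.5 ± 0.601 CPM in WT, 17.6 ± 5.26 in delE6/delE6, 15.3 ± 0.797 in delE6/+ and 25.3 ± 0.0242 in insASAY. *Zfp57* was lower in delE6/+ (-0.62) and insASAY (-0.57). *Tet2*, which oxidizes methylcytosine, was lower in delE6/delE6 (-0.75) and insASAY (-0.70) and higher in delE6/+ (0.71). *Aff3*, a factor bound at the control region of this cluster, was higher in delE6/+ (0.80) and insASAY (0.67). Neither *Zfp57* nor *Aff3* was called in delE6/delE6. There *Aff3* stood at 42.5 ± 4.79 CPM (30.1 ± 0.799 in WT) and *Zfp57* at 71.9 ± 13.6 CPM (85.8 ± 2.26 in WT). The mean of *Dppa3* was lowest in delE6/+, but its lowest library, at 13.9 CPM, was a delE6/delE6 library. The part of these genes in the levels of the cluster was not tested.

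Relatives and partners of the coding genes were followed as a list of 25, of which 19 were tested. In delE6/delE6 against WT 2 were called higher and 5 lower, in delE6/+ 3 higher and 0 lower, and in insASAY 5 higher and 3 lower. These were 36.8%, 15.8% and 42.1% of the tested list, beside 12.7%, 13.5% and 21.3% of all tested genes, so the count in delE6/+ was near the background. *Rtl8c*, a retrotransposon-derived gene like *Rtl1*, rose in all 3 lines, from 0.734 ± 0.120 CPM in WT to 1.48 ± 0.0326 in delE6/delE6, 2.35 ± 0.262 in delE6/+ and 3.03 ± 0.0942 in insASAY. *Jag2*, a Notch ligand, fell in delE6/delE6 (-0.62) and insASAY (-0.73), and *Dll1*, another, fell in delE6/delE6 (-1.11). *Notch2* rose in delE6/+ (0.63). *Slc16a10*, a thyroid hormone transporter, fell in delE6/delE6 (-0.51) and insASAY (-1.05). Copies of the *Rtl8* genes are near-identical, so their counts are uncertain. Of 7 tested nuclear-retained long noncoding RNAs of other loci, 2 were called higher and 2 lower in delE6/delE6, with *Malat1* lower (-0.89) and *Tug1* higher (0.58). These were 57.1% of that list, beside 12.7% of all tested genes. In delE6/+ 1 was called higher and 1 lower (28.6%, beside 13.5%), and in insASAY 2 higher and 3 lower (71.4%, beside 21.3%).

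Markers of embryonic fibroblasts, which serve as feeder cells and express *Meg3*, were counted in each library. By the study's methods the cells were differentiated in a feeder-free condition. Whether feeder cells remained was not tested. The summed level of 12 fibroblast markers was 88.6 to 94.8 CPM in WT, 61.3 to 66.0 in delE6/delE6, 101 to 103 in delE6/+ and 55.6 to 56.8 in insASAY libraries. Of 8 tested, 4 were called lower and 0 higher in delE6/delE6, 6 lower and 0 higher in insASAY, and 1 lower and 2 higher in delE6/+. Their median log2 fold changes were -0.60, -0.77 and 0.19. The calls were 50%, 75% and 37.5% of the tested markers, beside 12.7%, 21.3% and 13.5% of all tested genes. Among the fibroblast markers, *Fap* and *Postn* had 0 to 2 reads per library and *Col1a1* 4.21 to 14.2 CPM. *Fbn1* had 21.4 to 36.7 CPM and *Mmp2* 17.2 to 37.2 CPM. The summed pluripotency markers were 1514 to 1571 CPM in WT and 998 to 1265 in the edited lines, with 5 of 10 called lower in delE6/delE6, 6 lower and 2 higher in delE6/+ and 4 lower in insASAY. These were 50%, 80% and 40% of the list, beside 12.7%, 13.5% and 21.3% of all tested genes. Of 7 tested neural markers, 2 were called higher and 1 lower in delE6/delE6 (median log2 fold change -0.08), 4 higher and 1 lower in delE6/+ (median 0.75) and 1 higher and 0 lower in insASAY (median -0.01). Their called shares, in that order, were 42.9%, 71.4% and 14.3%, so the share in insASAY was below the background. *Sox1* stood at 5.84 ± 0.677 CPM in WT and 24.0 ± 0.590 in delE6/+. The summed neural markers, 126 to 128 CPM in WT, 179 to 231 in delE6/delE6, 122 to 123 in delE6/+ and 149 to 161 in insASAY, were mostly *Nes* (91.9 ± 3.13 CPM in WT and 161 ± 35.3 in delE6/delE6). Of 6 tested markers of the primitive streak and mesoderm, 1 was called higher and 0 lower in delE6/delE6, 1 higher and 3 lower in delE6/+ and 1 in each direction in insASAY. Of 7 tested endoderm and extraembryonic markers, 1 was lower in delE6/delE6, 2 were higher in delE6/+ and 1 was higher in insASAY. The called shares in delE6/delE6, delE6/+ and insASAY were 16.7%, 66.7% and 33.3% for the streak and mesoderm list. For the endoderm and extraembryonic list they were 14.3%, 28.6% and 14.3%. Both lists were thus near the background in delE6/delE6, and the endoderm and extraembryonic list was below it in insASAY. The part of these marker differences in the levels of the cluster was not tested. In bulk RNA, a change in the share of cells that express a gene and a change per cell cannot be told apart.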

How the data were processed

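RNA was enriched for poly(A) and made into strand-specific libraries (NEBNext Ultra II Directional), per the labels. The authors aligned reads to mm10 with STAR 2.7.2a and deposited counts of reads per gene as whole numbers, without normalization, in 3 columns (without regard to strand, and on each strand); the column on the transcript's strand was used. DESeq2 1.40.2 is listed in the submitters' processing notes. The annotation release is not given in the sources used here: 48058 of 48440 identifiers matched GENCODE M21. STAR leaves out reads that overlap 2 genes on one strand. STAR's 4 summary lines, present in 7 files, were left out.

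Counts were filtered (filterByExpr, minimum count 10, minimum total 15), scaled by TMM and fitted with edgeR 4.0.16 (R 4.3.3) in 1 quasi-likelihood model of all 8 libraries, giving 6 comparisons. SE is the log2 fold change divided by the square root of F. Replicates are biological according to the study's methods. The steps were tested on simulated counts. Promoter and microRNA sequences are from RefSeq (GRCm38.p6).

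The members, gene lists and tests were chosen with earlier results of these data known. All 6 members are named. Of each list, up to 4 called members with the smallest adjusted p per comparison, or those called in all 3 lines, are named. Others (*Fap*, *Postn*, *Fbn1*, *Mmp2*, *Begain*, *Gm26906*) were chosen after their values were seen. Alternatives were DESeq2 1.42.0, its size factors in edgeR, other filters, unstranded counts, fits of 2 groups, a replicate block, TREAT (limma 3.58.1) and leaving out each library. Replicate numbers did not pair libraries: correlations of deviations ran from -0.100 to 0.0672.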

Additional observations from a re-analysis of the deposited data

How the results depend on the processing

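DESeq2's Wald test, its size factors in edgeR, no filter, counts without strand, fitting 2 genotypes alone and the replicate block left each count of called cluster genes within 1.5 times of that reported. With the replicate block, 3, 2, 4, 3, 4 and 2 genes were called in the 6 comparisons in the order of the text, the 1 change being *Dio3* in insASAY against WT (-0.98, adjusted p = 0.0255). The libraries share only a number, so no paired result is given. A minimum of 10 counts in every library removed *Dio3* from the test and left 1 call in delE6/+ against WT. TREAT, which tests for a log2 fold change past 0.5, kept all 3 calls in delE6/delE6 against WT but called 0 genes in delE6/+ against WT, 1 (*Mirg*) in insASAY against WT, 1 (*Rian*) in insASAY against delE6/delE6, 2 in delE6/+ against delE6/delE6 (*Meg3* was lost, adjusted p = 0.0787) and 0 in insASAY against delE6/+. At an unadjusted p under 0.05, TREAT gave 1 gene (*Dio3*) and 2 genes (*Dlk1* and *Mirg*) in the comparisons with 0 calls.

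Leaving out each library in turn gave 0 to 2 calls in delE6/+ against WT, 2 to 4 in insASAY against WT, 1 to 3 in insASAY against delE6/+, 3 to 4 in insASAY against delE6/delE6 and 3 throughout in the other comparisons. Signs changed for differences that were not called: *Dlk1* in delE6/delE6 against WT (-0.28 to 0.33), in delE6/+ against WT (-0.0842 to 0.0564) and in delE6/+ against delE6/delE6 (-0.34 to 0.27), *Rian* in delE6/+ against WT (-0.01 to 0.11) and *Meg3* in insASAY against delE6/+ (-0.28 to 0.0533). The cause was not tested.

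Low counts limit *Dio3* (6 to 41 reads) and *Dlk1* (61 to 122 reads), and *Rtl1* could not be measured.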
